A study of Mus musculus with 9 samples.

Results

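The 32 genes described here encode the protein folding machinery of the endoplasmic reticulum (ER) and the unfolded protein response that governs it. They were taken by symbol from GENCODE M21, the mouse annotation behind the counts, and all 32 were found among the 55536 annotated genes and lay within the 16039 genes with enough counts to be tested. RNA came from quadriceps muscle of C57BL/6 mice after volumetric muscle loss, the surgical removal of a piece of muscle. A total of 4 libraries are labelled wild type and 5 are labelled Il17ra-/-, a knockout of a receptor subunit for interleukin-17 cytokines. Every library carries the same other labels, namely an age of 6 weeks, saline as the material and a harvest 1 week after surgery, whereas the protocol for extraction speaks of PCL and of muscles taken at 6 weeks. The design text speaks of animals in triplicate, which is fewer than the libraries per label. Which version holds could not be settled from the sources used here. The Il17ra allele is not described further, no cell type is named for the knockout, and the labels tie no library to an animal, litter or day, so that p-values measure the spread between these libraries. Below, "wild-type" or "Il17ra-/- replicate" with a number names a library by its label.

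Proteins bound for secretion, the membrane or the lysosome enter the ER through the translocon, are held by chaperones, receive disulfide bonds from isomerases, and are returned to the cytosol for destruction by ER-associated degradation when they fail to fold. Unfolded protein in the ER lumen activates 3 membrane sensors, ATF6, IRE1 (encoded by Ern1) and PERK (encoded by Eif2ak3). ATF6 and the spliced form of XBP1, which IRE1 produces, switch on chaperone and degradation genes, and PERK slows translation and raises ATF4. Connective tissue cells that secrete collagen depend on this machinery heavily.

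The libraries held 31294089 to 46435401 counts. Il17ra itself was higher in every library labelled Il17ra-/- (181 to 284 CPM, counts scaled to library size) than in any labelled wild type (75.9 to 119 CPM), with a log2 fold change of 1.11 (SE 0.17, adjusted p = 0.00208). The level of the targeted transcript thus does not bear out the knockout label. Nor can it contradict the label, since the allele is not described and counts over all exons do not show function. Every direction below rests on the labels. Wild-type replicate 2 stood apart on the first principal component and Il17ra-/- replicate 1 on the second. Fibroblast transcripts were abundant, the 8 fibroblast markers summing to 44924 to 64208 CPM over the 9 libraries, while the leukocyte marker Ptprc did not exceed 0.461 CPM. The 10 muscle fibre markers summed to 1028 to 2633 CPM for wild-type labels and to 2942 to 3966 CPM for Il17ra-/- labels. The 10 myeloid markers summed to at most 38.6 CPM, the 8 lymphocyte markers to at most 0.767 CPM and the 6 endothelial markers to 262 to 457 CPM. Whether the RNA stands for whole muscle or for a fibroblast-rich part of it was not tested. In RNA taken from many cells together, fewer cells of a type and less RNA per cell cannot be told apart. The part of fibre content in the differences below was not tested.

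Across the module, 3 of the 32 members fell under the Il17ra-/- label, and 0 rose. The 3 were Dnajb9 and Hspa5, a co-chaperone and the chaperone it assists, and Herpud1, a scaffold of the degradation machinery. Their share was 9.38% of the members, where 3.06% of all tested genes were called in either direction 1.71% were called lower and 1.35% higher by the same rule (edgeR's quasi-likelihood test, Benjamini-Hochberg adjusted p under 0.05 over all 16039 genes). Of all 32 members, 27 had a negative log2 fold change (labelled Il17ra-/- minus labelled wild type), with a median of −0.20, against −0.0027 over all tested genes. An unadjusted p under 0.05 was found for 11 of the 32 members (34.4%), against 16.4% of all tested genes. No member with a positive log2 fold change had such a p, and DESeq2 and limma-voom called none of them. The genotype groups did not overlap for 6 members (18.8%), against 9.18% of all tested genes in either direction and 4.56% in the lower direction; these were Hspa5, Hsp90b1, Calr, Dnajb9, Pdia3 and Herpud1, all lower in the libraries labelled Il17ra-/-. DESeq2 called 6 members lower, adding Manf, Syvn1 and Xbp1, and the same 6 were called when wild-type replicate 4 was left out.

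**Figure D1:**
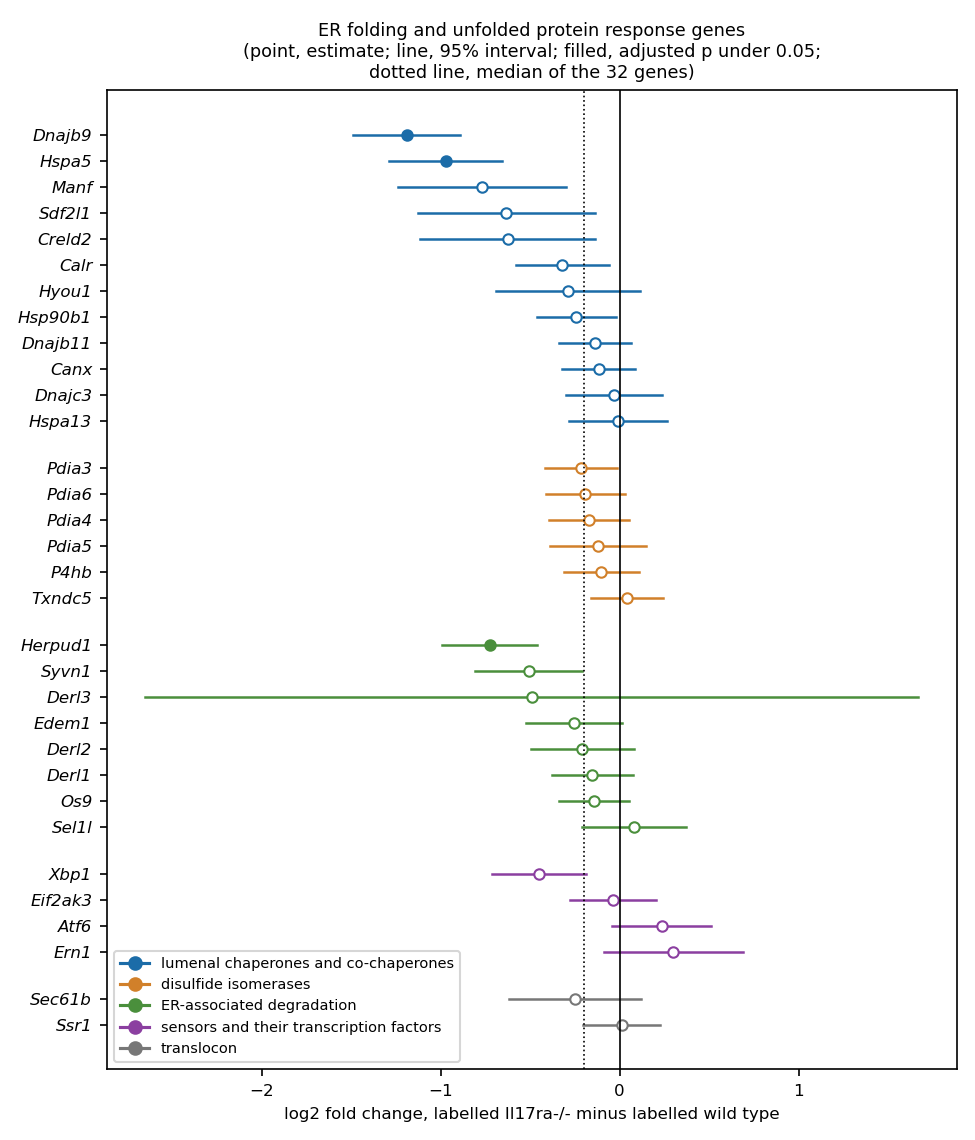
Log2 fold change of each of the 32 genes (x axis, labelled Il17ra-/- minus labelled wild type) with its 95% interval, grouped by role; filled points passed the adjusted p of 0.05 and the dotted line marks the median of −0.20. The filled points are Dnajb9, Hspa5 and Herpud1, most other points lie left of 0, and Derl3 has the widest interval because it had at most 37 counts in any library.

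The promoters of these genes are known for 2 elements that the stress-activated ATF6 and XBP1 bind, the ER stress response element (ERSE, CCAAT and CCACG with 9 bases between them) and the shorter ERSE-II (ATTGG and CCACG with 1 base between them). RefSeq promoter windows (GRCm38.p6, 250 bases before to 50 after a start) were matched for 27 members, which had 30 windows between them, and were searched on both strands. An ERSE lay in a window of 9 of the 27 members (33.3%) and of 0.137% of all 27025 genes in the table. ERSE-II lay in those of 2 members, Herpud1 and Dnajb11, and of 0.0444% of all genes. The XBP1 element UPRE (TGACGTGG) was found in 1 member, Txndc5, and in 0.714% of all genes. The shared core CCACG, which also ends each ERSE and ERSE-II, was found in 23 members and in 35.5% of all genes, and CCAAT, which begins each ERSE, in 21 members and 41.1% of all genes. The stretches below are read along the strand of the gene, with the fixed letters of the motif in capitals. Those with an ERSE are shown because the same element stands before genes that differ in how far they moved. Herpud1 and Dnajb9 hold no ERSE in their windows and are shown as members that fell. The Dnajb9 window also holds a CCACG from 15 to 11 bases before the start and a CCAAT, which are not shown.
Hspa5: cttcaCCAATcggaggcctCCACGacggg
Hsp90b1, farther element: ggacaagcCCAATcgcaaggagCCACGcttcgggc
Hsp90b1, nearer element, opposite strand: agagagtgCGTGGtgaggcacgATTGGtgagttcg
Calr, opposite strand: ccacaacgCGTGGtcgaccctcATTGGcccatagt
Canx: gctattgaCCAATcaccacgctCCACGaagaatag
Dnajc3: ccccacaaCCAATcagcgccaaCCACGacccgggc
Creld2, opposite strand: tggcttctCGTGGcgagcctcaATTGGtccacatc
Pdia6: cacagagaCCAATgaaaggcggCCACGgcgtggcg
Syvn1: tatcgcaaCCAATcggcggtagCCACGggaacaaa
Derl3, opposite strand: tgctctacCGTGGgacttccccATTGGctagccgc
Herpud1, ERSE-II: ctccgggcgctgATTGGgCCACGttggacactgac
Dnajb9, CCACG core only: aacaacagttttCCACGtgcgcgtagggc

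On GRCm38.p6 the plus-strand stretches are chr2:34772020-34772048 (Hspa5), chr14:118937819-118937853 (Dnajc3), chr15:88819512-88819546 (Creld2), chr12:17266483-17266517 (Pdia6), chr19:6046524-6046558 (Syvn1), chr10:75893234-75893268 (Derl3) and chr8:94386365-94386399 (Herpud1). Those of minus-strand genes are chr10:86705630-86705664 and chr10:86705525-86705559 (Hsp90b1), chr8:84847067-84847101 (Calr), chr11:50325792-50325826 (Canx) and chr12:44210160-44210188 (Dnajb9). The Hspa5 and Dnajb9 stretches each overlap 1 exon annotated in GENCODE M21, and the others overlap 0. The Hspa5 element began 65 bases before the RefSeq start and the Herpud1 element 52 bases before it. All 9 members with an ERSE had a negative log2 fold change, but they ran from −0.97 for Hspa5 to −0.033 for Dnajc3, with a median of −0.32. The 18 matched members without one ran from −1.19 for Dnajb9 to 0.30 for Ern1, with a median of −0.16. Of the 9 members with an ERSE 1 fell, and of the 18 without it 2 fell, where 1.71% of all tested genes were called lower. These 2 were Dnajb9, the member with the largest fold change, and Herpud1, whose window holds an ERSE-II. No difference between these sets was tested.

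**Figure D2:**
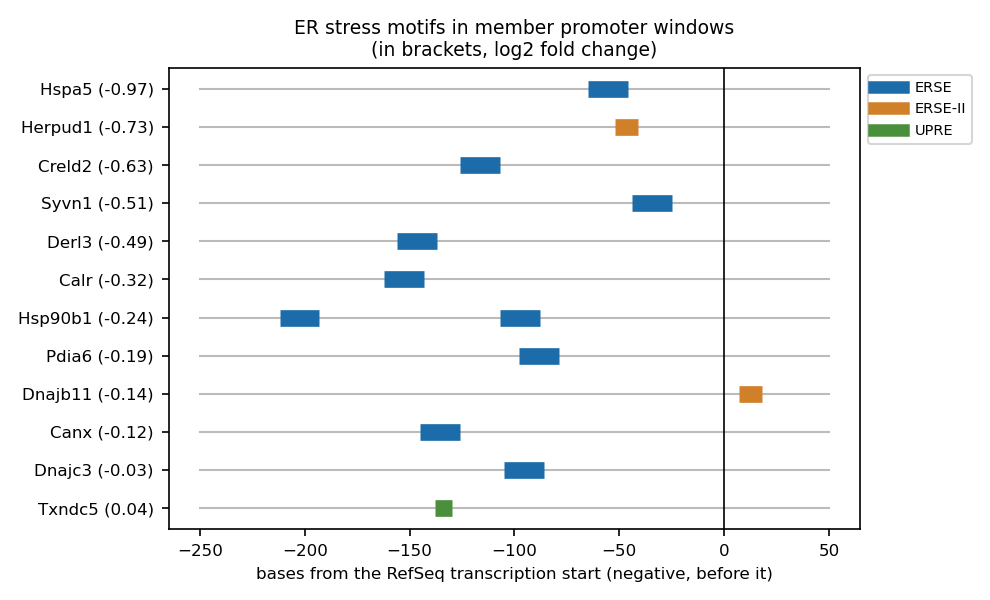
Position of ERSE, ERSE-II and UPRE motifs in the RefSeq promoter windows of the 12 members that hold one (x axis, bases from the start; grey line, the window), ordered by log2 fold change in brackets. Hspa5, Creld2 and Canx all carry an ERSE before the start, at log2 fold changes of −0.97, −0.63 and −0.12.

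The lumenal chaperones held 2 of the 3 falls, or 16.7% of the class, against 3.06% of all tested genes called in either direction. All 12 genes of this class had a negative log2 fold change (median −0.30). Of the 12, 7 (58.3%) had an unadjusted p under 0.05, against 16.4% of all tested genes. Hspa5 encodes BiP, the Hsp70 chaperone of the ER lumen and the protein that keeps the sensors inactive. Its position is chr2:34771970-34777547, plus strand. It stood at 2108, 2203, 2683 and 2081 CPM in wild-type replicates 1 to 4 and at 868, 1066, 1448, 1071 and 1327 CPM in Il17ra-/- replicates 1 to 5. The highest library labelled Il17ra-/- was thus well below the lowest labelled wild type. The mean fell from 2269 ± 281 (SD, n = 4) to 1156 ± 231 CPM (SD, n = 5), a log2 fold change of −0.97 (SE 0.15, 95% interval −1.29 to −0.66, adjusted p = 0.00208). Dnajb9, the J-domain co-chaperone ERdj4, which stimulates BiP and restrains IRE1, is found at chr12:44205559-44210326, minus strand. Its values were 169, 186, 208 and 160 CPM under the wild-type label and 60.6, 71.2, 85.8, 80.2 and 97.9 CPM in those labelled Il17ra-/-. Every library labelled Il17ra-/- was below every library labelled wild type, and the log2 fold change was −1.19 (SE 0.14, 95% interval −1.49 to −0.89, adjusted p = 3.58e-04).

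The other abundant chaperones had smaller differences that did not pass. Hsp90b1, which encodes GRP94, the Hsp90 of the ER, stood at 1082, 1062, 1086 and 1050 CPM against 907, 941, 970, 747 and 959 CPM. The groups did not overlap, yet the log2 fold change was −0.24 (95% interval −0.46 to −0.021, adjusted p = 0.255), and 15.7% of its exonic length is shared with other annotated genes. Calr, the lectin chaperone calreticulin, stood at 1152, 1440, 1088 and 1056 CPM against 865, 1014, 1030, 828 and 1004 CPM (−0.32, 95% interval −0.58 to −0.061, adjusted p = 0.197). Canx, its membrane-bound relative calnexin, had a log2 fold change of −0.12 (95% interval −0.32 to 0.088, adjusted p = 0.588). Dnajb11, the co-chaperone ERdj3, had one of −0.14 and Dnajc3, the co-chaperone P58IPK, one of −0.033. The interval of Hspa5 lies wholly below those of Hsp90b1, Calr, Canx, Dnajb11 and Dnajc3.

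Ratios within libraries describe how unequal these differences were, for 3 pairs of genes chosen after their values were seen, so no test is given. The ratio of Hspa5 to Hsp90b1 ran from 1.95 to 2.47 under the wild-type label and from 0.956 to 1.49 under the other, a difference in mean log2 ratio of −0.74. The ratio of Dnajb9 to Dnajb11 ran from 1.42 to 1.82 against 0.578 to 0.865 (−1.06). For the degradation genes, the ratio of Herpud1 to Syvn1 ran from 1.82 to 2.55 against 1.72 to 1.91, with overlapping groups (−0.22).

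**Figure D3:**
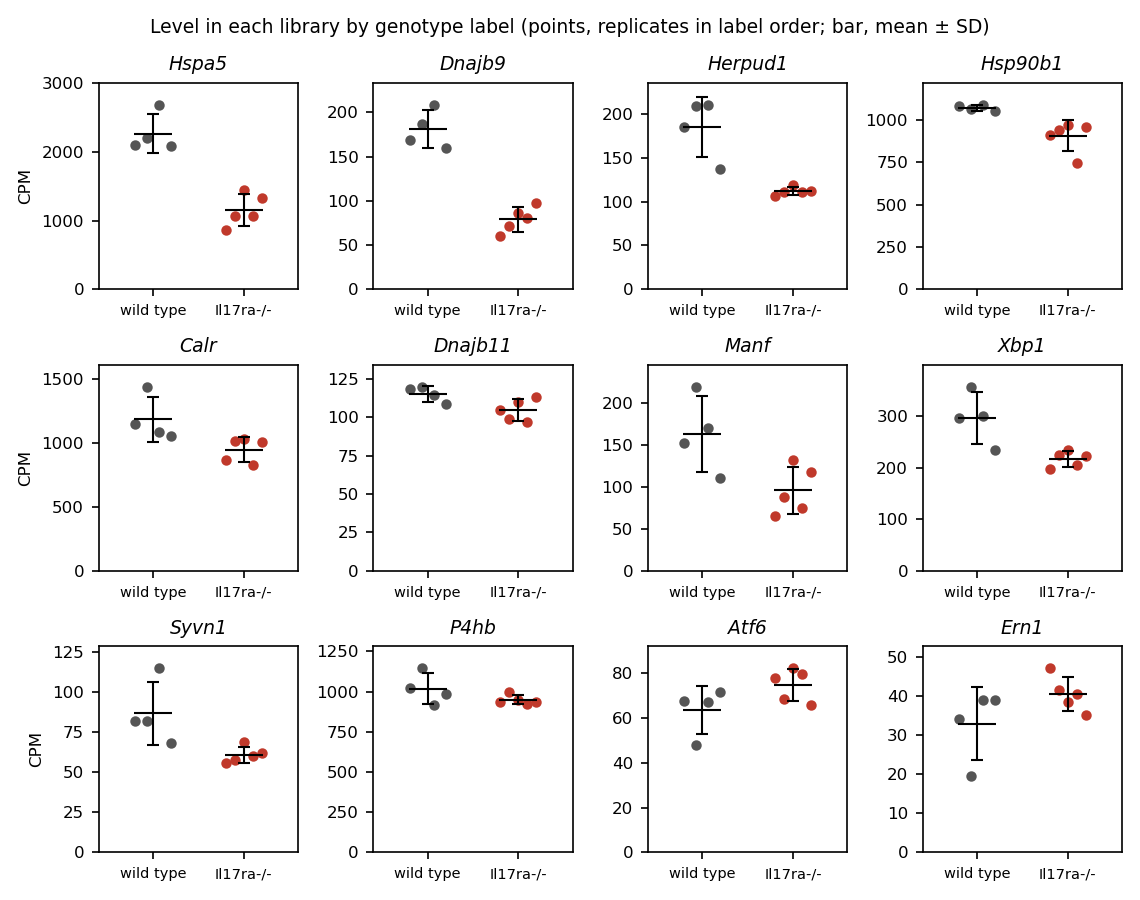
CPM of 12 of the genes in each library (points), by genotype label, with the mean and SD of the 4 and 5 libraries. Hspa5 and Dnajb9 separate the groups with a wide gap, Herpud1, Hsp90b1 and Calr with a narrower one, and Manf, Xbp1, Syvn1, Dnajb11, P4hb, Atf6 and Ern1 overlap.

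Among the smaller lumenal factors, 3 genes had larger estimates with wide spread. Manf, a secreted ER stress protein that binds BiP, stood at 152, 220, 170 and 111 CPM against 65.9, 88.3, 132, 74.5 and 118 CPM. Because wild-type replicate 4 lay below 2 of the libraries labelled Il17ra-/-, the groups overlapped (−0.77, SE 0.22, adjusted p = 0.0805), and Manf passed under 4 of 18 alternatives. Of its exonic length, 9.25% is shared with other genes, among them Rbm15b (mean 43.7 CPM) and Dcaf1 (36.3 CPM). Sdf2l1, a partner of the BiP and J-protein cycle, had a log2 fold change of −0.64 (SE 0.23, adjusted p = 0.181), with 25.9 to 66.9 CPM against 23.2 to 39.1 CPM. Creld2, a secreted factor with isomerase-like activity, had one of −0.63 (SE 0.23, adjusted p = 0.181), with 47.0 to 108 CPM against 37.8 to 68.6 CPM. Hyou1, the BiP nucleotide exchange factor GRP170, had −0.29 (SE 0.19, adjusted p = 0.475), and Hspa13, an Hsp70 relative of microsomes, had −0.0090 (95% interval −0.28 to 0.27).

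The disulfide isomerases showed the narrowest range of differences, and none of the 6 passed. Their log2 fold changes ran from −0.22 to 0.040 with a median of −0.15, and neither DESeq2 nor limma-voom called any. Of the 6, 1 (16.7%) had an unadjusted p under 0.05, near the 16.4% of all tested genes. Pdia3, the isomerase ERp57 that works with calnexin and calreticulin, was the member with that p. It stood at 912, 1003, 870 and 939 CPM against 806, 840, 816, 741 and 806 CPM, without overlap (−0.22, 95% interval −0.42 to −0.014, adjusted p = 0.268). P4hb, the archetypal protein disulfide isomerase and a subunit of the collagen prolyl hydroxylase, stood at 1019 ± 95.6 (n = 4) against 948 ± 28.0 CPM (n = 5) with overlapping groups (−0.10, 95% interval −0.31 to 0.11). Pdia6, which acts on BiP clients, had −0.19 (95% interval −0.41 to 0.031), Pdia4 −0.17 (−0.40 to 0.050) and Pdia5 −0.12 (−0.39 to 0.15). Txndc5, an isomerase prominent in fibroblasts and endothelium, was the member of this class with a positive value, 0.040 (95% interval −0.16 to 0.24). Of its exonic length, 11.9% is shared with other genes, among them Bmp6 (mean 66.1 CPM). For all 6 the interval excludes a fall as large as that estimated for Herpud1, the smallest of the 3 that passed.

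ER-associated degradation held 1 fall among 8 genes (12.5%, against 3.06% of all tested genes called in either direction). Of the 8, 7 had a negative log2 fold change (median −0.23). An unadjusted p under 0.05 was found for 2 of the 8 (25.0%, against 16.4% of all tested genes). Herpud1 encodes HERP, which organises the membrane complex that exports misfolded protein. Its position is chr8:94386438-94395377, plus strand. It stood at 184, 208, 210 and 137 CPM under the wild-type label and at 106, 111, 118, 111 and 112 CPM in those labelled Il17ra-/-. The libraries labelled Il17ra-/- were nearly alike (112 ± 4.37 CPM, n = 5), while wild-type replicate 4 lay nearest to them. The log2 fold change was −0.73 (SE 0.12, 95% interval −0.99 to −0.46, adjusted p = 0.00500). Syvn1 encodes HRD1, the ubiquitin ligase at the centre of the same complex, and stood at 81.9, 81.7, 115 and 68.2 CPM against 55.8, 57.8, 68.9, 60.3 and 62.1 CPM. A single library labelled Il17ra-/-, replicate 3, exceeded the lowest labelled wild type, and the gene did not pass (−0.51, SE 0.14, adjusted p = 0.0698).

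Sel1l, the adaptor that holds HRD1 in place, had a log2 fold change of 0.081 (95% interval −0.21 to 0.37), and it was −0.020 without wild-type replicate 2. Edem1, a lectin that hands over glycoproteins, had −0.25 (95% interval −0.52 to 0.015), and the derlins Derl1 and Derl2, membrane proteins of the export channel, had −0.15 and −0.21. Os9, the lectin that delivers clients to SEL1L, had −0.14 (95% interval −0.34 to 0.054). Derl3, a derlin of secretory cells, was hardly detected, with 0 to 37 counts per library and 0.118 to 1.03 CPM in the 8 libraries where it had any. A count of 0 in wild-type replicate 2 allows up to 0.0984 CPM, and at this depth no difference was detectable (−0.49, 95% interval −2.65 to 1.67).

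The sensors and the transcription factor downstream of them did not share a direction, and none of the 4 passed edgeR's test. Of the 4, 1 (25.0%, against 16.4% of all tested genes) had an unadjusted p under 0.05. Xbp1, the substrate of IRE1, stood at 296, 356, 299 and 233 CPM against 197, 225, 234, 205 and 222 CPM. Il17ra-/- replicate 3 slightly exceeded wild-type replicate 4, and the log2 fold change was −0.45 (SE 0.12, 95% interval −0.72 to −0.19, adjusted p = 0.0656). DESeq2 called Xbp1 lower (limma-voom did not), as did edgeR without wild-type replicate 4. Gene counts do not separate its spliced from its unspliced form. Atf6 stood at 67.5, 48.0, 67.1 and 71.4 CPM against 77.6, 68.2, 82.2, 79.7 and 65.9 CPM (0.23, 95% interval −0.042 to 0.51, adjusted p = 0.393). Ern1 stood at 34.2, 19.4, 39.0 and 38.9 CPM against 47.1, 41.4, 38.3, 40.5 and 35.0 CPM (0.30, 95% interval −0.090 to 0.69, adjusted p = 0.442). Both were lowest in wild-type replicate 2, and without that library their log2 fold changes were 0.12 each. Eif2ak3 had −0.036 (95% interval −0.28 to 0.21).

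Of the 2 translocon genes, neither passed, and neither had an unadjusted p under 0.05 or was called by DESeq2 or limma-voom. Sec61b, the small subunit of the protein channel, stood at 34.5, 66.9, 39.5 and 37.5 CPM against 35.3, 37.0, 36.0, 38.1 and 41.1 CPM. Its log2 fold change of −0.25 (95% interval −0.62 to 0.12) rested on wild-type replicate 2, without which it was 0.015. Ssr1, a subunit of the translocon-associated protein complex, had 0.012 (95% interval −0.20 to 0.23).

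Summed over the module, the 32 genes held 10694 ± 577 CPM (n = 4), or 1.07% of the scaled counts, under the wild-type label and 8413 ± 663 CPM (n = 5), or 0.841%, under the Il17ra-/- label. The sums ran from 10007 to 11186 CPM against 7689 to 9277 CPM, and without Hspa5 from 7926 to 8984 against 6618 to 7828 CPM, so that the groups did not overlap either way. The mean sum of the chaperones went from 6032 to 4222 CPM, of which Hspa5 alone held 2269 and 1156 CPM. The class sums in the libraries labelled Il17ra-/- were 0.700 of those labelled wild type for the chaperones, 0.849 for degradation, 0.914 for the isomerases and 0.976 for the translocon. The sensor class with Xbp1 had 0.865. Without Xbp1, the 3 sensors Atf6, Ern1 and Eif2ak3 summed to 126 to 188 CPM under the wild-type label and to 170 to 196 CPM under the other, a ratio of 1.10 with overlapping groups. Per kilobase of exon, Hspa5 was the most abundant member in the libraries labelled wild type (536 CPM per kb), ahead of Calr (411), P4hb (356), Pdia3 (297) and Hsp90b1 (265). In the libraries labelled Il17ra-/- this order on the same scale was P4hb (332), Calr (329), Hspa5 (273), Pdia3 (255) and Hsp90b1 (224). The sensors were far lower, with 12.1 CPM per kb for Eif2ak3, 6.88 for Atf6 and 4.02 for Ern1 in the libraries labelled wild type.

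**Figure D4:**
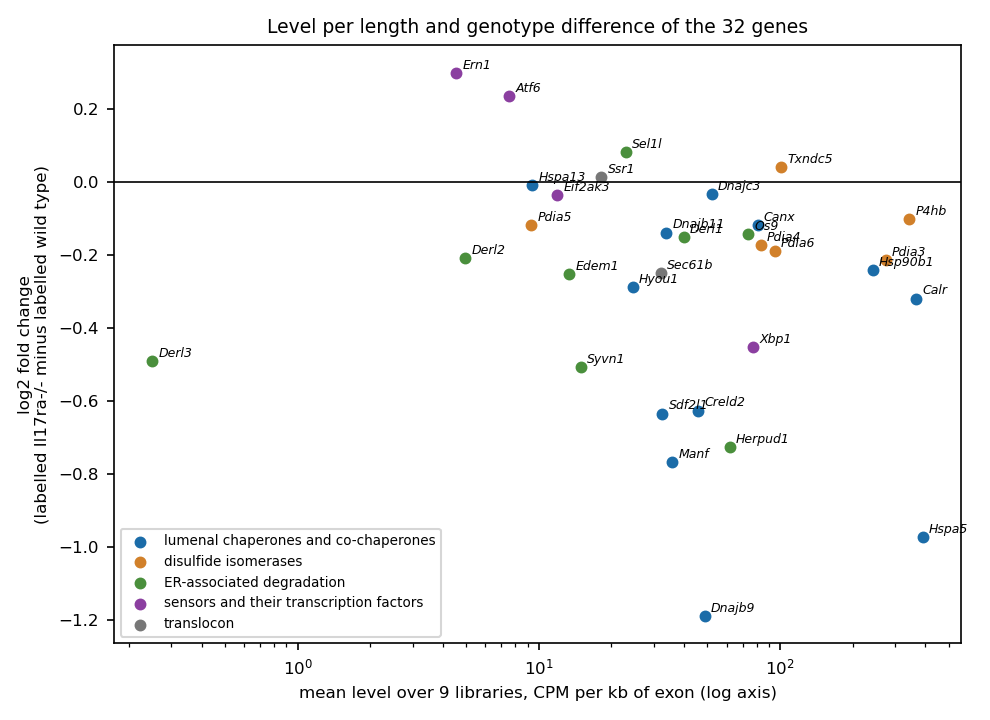
Mean level over the 9 libraries (x axis, CPM per kb of exon, log axis) against the log2 fold change (y axis) of the 32 genes, coloured by role. Genes of like abundance, such as Hspa5 and Calr or Dnajb9 and Dnajc3, lie far apart on the y axis, and the sensors Ern1 and Atf6 lie highest.

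The members were also ranked among libraries of one label. Among libraries labelled Il17ra-/-, replicate 3 was the highest for 19 of 32 members (59.4%), while it was highest for 15.8% of all tested genes; replicates 1 and 4 were the lowest for 14 members each (43.8%, against 29.3% and 21.2% of all tested genes). Among libraries labelled wild type, replicate 3 was the highest for 14 members (43.8%, against 21.1%) and replicate 2 for 13 (40.6%, near the 34.6% of all tested genes), and replicate 4 was the lowest for 15 (46.9%, against 22.1% of all tested genes). Manf, Sdf2l1 and Creld2 ranked all libraries in the same order within both labels, an order that 12 of the 16039 tested genes had. They also had some of the widest spreads, the highest library labelled wild type being 1.98, 2.58 and 2.30 times the lowest, against 1.03 for Hsp90b1 and 1.29 for Hspa5. Hspa5 and Herpud1 shared an order within both labels too, which 4 tested genes had. So did Dnajc3 and Edem1, neither of which was called, with an order that 7 tested genes had. Il17ra-/- replicate 3 did not reach the lowest library labelled wild type for Hspa5, Dnajb9 or Herpud1.

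**Figure D5:**
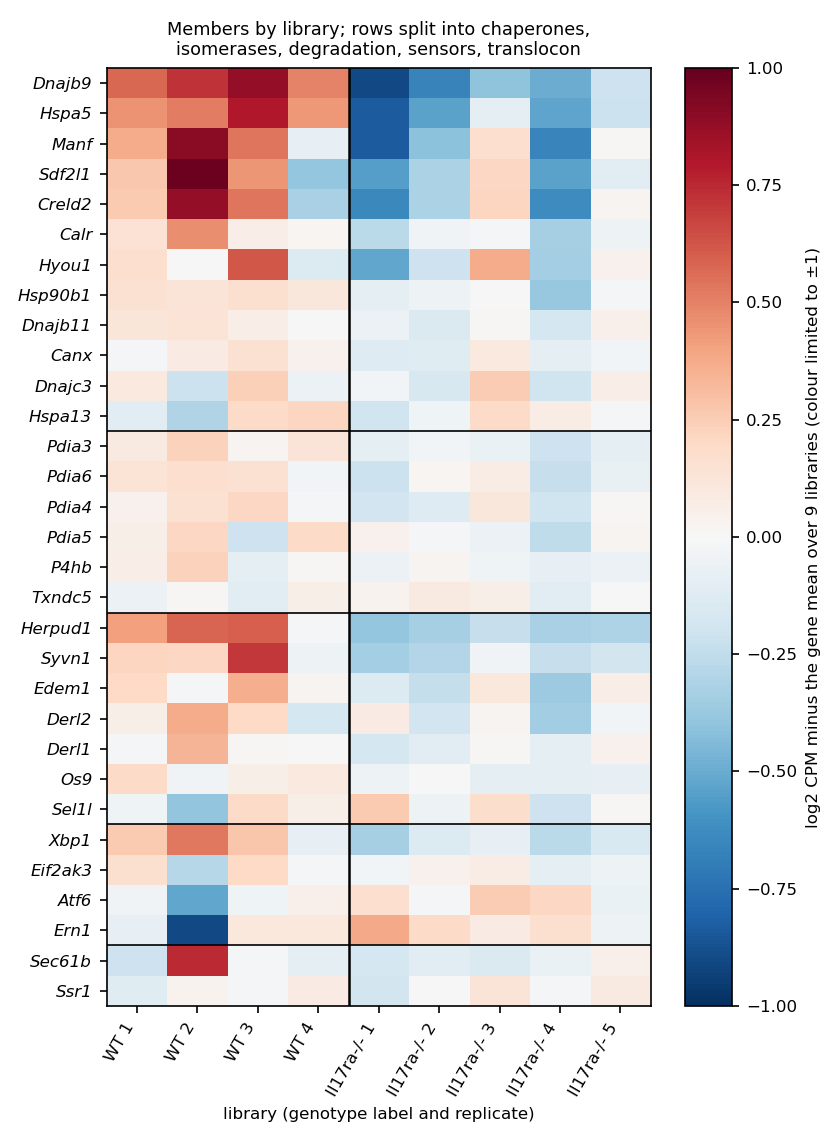
Log2 CPM of 31 members in each of the 9 libraries, relative to the mean of the gene (colour, limited to ±1; Derl3, which has a count of 0, is left out), with rows grouped by role and a line between the labels. Hspa5 and Dnajb9 turn from red to blue at that line, whereas Manf, Sdf2l1 and Creld2 are blue also in wild-type replicate 4 and light red in Il17ra-/- replicate 3.

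The wider ER machinery held no call. Of 78 tested genes in 5 lists of other disulfide enzymes, N-glycan trimming, other degradation factors, the rest of the translocon with signal peptidase and oligosaccharyltransferase, and other ER stress regulators, edgeR called 0, limma-voom called 0 and DESeq2 called 2, both degradation factors. An unadjusted p under 0.05 was found for 14 of the 78 (17.9%), close to the 16.4% of all tested genes. Their median log2 fold change was −0.067, and 53 of 78 were negative. The smallest p in each list belonged to Erp29, a lumenal folding factor (−0.33, adjusted p = 0.207), Prkcsh, the glucosidase II beta subunit (−0.21, adjusted p = 0.389), Rnf139, a ubiquitin ligase (0.55, adjusted p = 0.0986), Sec62, a translocation factor (−0.33, adjusted p = 0.149), and Mbtps2, the protease that releases ATF6 (0.44, adjusted p = 0.226). Of 20 genes of collagen folding, 1 (5.0%) was called, near the 3.06% of all tested genes. An unadjusted p under 0.05 was found for 15.0% of this list, near the 16.4% of all tested genes, and the list median was −0.078. The called gene was P4ha2, a prolyl hydroxylase subunit, which fell (−0.55, adjusted p = 0.0327). Its call was lost with library totals only and without wild-type replicate 1 or 3 or Il17ra-/- replicate 1, 2 or 4, and without wild-type replicate 2 and Il17ra-/- replicate 1 together.

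Lists of stress genes outside the ER lumen were set beside the module. Of 15 genes of the PERK arm, ATF4 and its targets, 5 fell and none was called higher (median −0.24). The log2 fold change was negative for 11 and positive for 4, and ran from −1.41 to 1.76. Atf4, the transcription factor of this arm, fell from 637 ± 58.2 to 348 ± 49.0 CPM (−0.87, SE 0.12, adjusted p = 0.00121). Ddit3, the proapoptotic factor CHOP, fell from 36.4 ± 16.5 to 13.7 ± 2.05 CPM (−1.41, adjusted p = 0.00416), although reads falling also in a short second gene annotated under this symbol were not counted. Ppp1r15a, the phosphatase subunit GADD34 that restores translation (−0.92, adjusted p = 0.00515), Nupr1, a stress-induced nuclear protein (−0.87, adjusted p = 0.00131), and Ddit4, an inhibitor of mTORC1 signalling (−0.94, adjusted p = 0.0345) (named after its value was seen, beyond the 4 with the smallest p), were the others. Of 18 cytosolic heat shock chaperones, 8 fell and all 18 had a negative log2 fold change (median −0.44). Among these were Dnajb1 (−1.61, adjusted p = 1.11e-04) and Dnaja1 (−1.18, adjusted p = 5.49e-04), J-domain partners of cytosolic Hsp70, and Hsph1, a nucleotide exchange factor of Hsp70 (−1.06, adjusted p = 0.00125). Hsp90aa1, the inducible cytosolic Hsp90, fell too (−0.94, adjusted p = 0.00158), against −0.24 for its ER counterpart Hsp90b1. The call shares of these lists, 33.3% and 44.4%, stand beside 9.38% for the 32 members and 3.06% for all tested genes, and no difference between lists was tested.

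Plasma cells, in which this machinery is prominent, left little trace. Of their 12 markers, Tnfrsf17, Pou2af1 and Iglc1 were at 0 in all libraries, and Jchain and Mzb1 did not exceed 0.759 and 0.110 CPM. Igkc reached 2.09 CPM in Il17ra-/- replicate 4. The summed level of the list, 95.9 to 108 CPM against 87.8 to 120 CPM, came mostly from Sdc1 and Irf4, which other cells also make. The 8 fibroblast markers summed to 52904 to 59747 CPM under the wild-type label and to 44924 to 64208 CPM under the other, so that the ranges overlapped, and 7 of the 8 markers overlapped too. The eighth, Pi16, was lower in every library labelled Il17ra-/- (3973 ± 633 to 2704 ± 214 CPM, log2 fold change −0.55, adjusted p = 0.0207). The 10 myeloid markers summed to 20.7 to 38.6 CPM against 9.02 to 17.2 CPM. Of the 10, 1 was lower without overlap, Cd68 (−2.80, adjusted p = 2.17e-04). The mean of Cd68 was 17.9 against 2.58 CPM, beside mean sums of 29.7 and 14.1 CPM, so the lower sum came mostly from Cd68. Of the other tested markers, Ptprc, Adgre1, Csf1r and C1qa had positive log2 fold changes. Lyz2 and C1qb had negative ones, and none of these was called. Whether myeloid content differed was not tested. The 6 satellite cell markers summed to 75.0 to 113 CPM against 144 to 187 CPM, with Pax7 (0.93) and Cdh15 (0.94) of the 6 higher without overlap. Of the 10 fibre markers, 4 were higher without overlap. The groups did not overlap for 9.18% of all tested genes in either direction. The 1 of 8 fibroblast and 1 of 10 myeloid markers are near that share. The part of these marker lists in the falls of Hspa5, Dnajb9 and Herpud1 was not tested.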

How the data were processed

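The deposited values are raw read-pair counts per gene in 9 libraries. Per the file headers, the authors made them with featureCounts 1.6.0 over exons, without strand, on GENCODE M21 (GRCm38); per the submitters' processing notes, reads were aligned with STAR (version not stated there). Multi-mapped reads and reads shared by overlapping genes were not counted under these settings. Genes were filtered with filterByExpr, scaled by TMM, and tested with edgeR 4.0.16 (R 4.3.3), genotype label as the only term, two-sided; adjusted p-values are Benjamini-Hochberg over 16039 genes. SE is the absolute log2 fold change over the root of F, and the 95% intervals use its t distribution. CPM are TMM-scaled. Counts of 3 correspond to 0.0638 to 0.0984 CPM; intervals and floors cover counting error only where no replicates enter. DESeq2 1.42.0 and limma 3.58.1 (voom), other scalings and filters, a replicate block and fits without single libraries were alternatives. The procedure was tested on simulated counts. The members, classes, lists and tests were chosen with earlier results of these data known. Named were all members, Il17ra, and of each other list the called genes, up to the 4 with the smallest p, or else the 1 with the smallest p. Marker genes were outside this rule and were named as values beside a result. Ddit4 and Acacb were named beyond it, after their values were seen. Ero1b and genes that share exons with members were named for symbol matching and overlap. Protein sequences were not used here.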

Additional observations from a re-analysis of the deposited data

Results flagged for a closer look

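In 64 groups of 4 or 5 libraries (each member in each label), 4 held a library whose gap to its neighbour was large against the range of the group, by Dixon's criterion; chance flags about 1 group in 20. Hsp90b1 was lowest in Il17ra-/- replicate 4, at 747 CPM against 907 CPM for the next. Pdia6 was lowest in wild-type replicate 4, at 349 CPM against 390 CPM. Derl1 was highest in wild-type replicate 2, at 167 CPM against 133 CPM, and so was Sec61b, at 66.9 CPM against 39.5 CPM. Wild-type replicate 2 also stood apart on the first principal component over all genes.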

How the results depend on the processing

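Hspa5, Dnajb9 and Herpud1 were called lower under all 18 alternatives (adjusted p at most 0.0101, 0.00237 and 0.0245). The count of called members was 3 to 6 in the fits without 1 library and 6 with DESeq2; with DESeq2, 2 degradation members, 1 gene of the sensor class (Xbp1) and 2 other degradation genes were called, and without single libraries 1 to 2 and 0 to 1 of the first 2 classes. Over all genes DESeq2 called 1026 and the fits without 1 library 275 (without Il17ra-/- replicate 3) to 567, 323 of them without Il17ra-/- replicate 1. Collagen folding had 0 calls with library totals only and without both wild-type replicate 2 and Il17ra-/- replicate 1, and 0 to 1 without single libraries. Library totals only made 41.3% of all calls lower, against 55.8%. The replicate block called 4 members, adding Manf, and 363 genes. Over all genes, deviations of same-numbered libraries correlated at −0.017 to 0.056, with the highest value for replicate 3. Differently numbered libraries correlated at −0.040 to 0.036. Such values cannot exclude that libraries of one number share a batch or are paired. Signs turned for members near 0, none called: with library totals only Dnajc3 (0.029), Hspa13 (0.056) and Eif2ak3 (0.027); without the filter Hspa13 (0.0091); with the replicate block Hspa13 (0.0048), Derl3 (0.18) and Ssr1 (−0.011); with limma-voom Derl3 (0.039); without both named libraries Sel1l (−0.081) and Sec61b (0.035). Without single libraries the ranges were −0.10 to 0.050 for Dnajc3, −0.098 to 0.069 for Hspa13, −0.020 to 0.17 for Sel1l, −0.12 to 0.032 for Eif2ak3, −0.35 to 0.015 for Sec61b and −0.022 to 0.057 for Ssr1. With 4 and 5 libraries, the number of libraries sets the width of the intervals given, and Derl3 is limited by depth.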

Other observations

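Outside the module, 28 other genes of the RefSeq table hold an ERSE in a promoter window, and 9 of them were found by symbol among the tested genes. Ero1b, an ER disulfide enzyme among the 28, is named Ero1lb in GENCODE M21 and was therefore left out of these 9. Under that name it was in the list of other disulfide enzymes, of which edgeR called 0. Of the 9 found, 3 had a negative log2 fold change and the median was 0.014, against 9 of 9 and −0.32 for the members with the element. Acacb, an acetyl-CoA carboxylase of muscle, was the called gene among them and was higher in the libraries labelled Il17ra-/- (0.82); it was named after its value was seen.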
